A study of Mus musculus with 6 samples.

Results

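The tripartite motif (TRIM) genes other than Trim37 were followed in mouse hippocampus. They were taken as every gene symbol made of Trim, a number and at most 1 letter, which gave 65 of the 24346 listed genes. TRIM proteins are built from a RING finger, B-box zinc fingers and a coiled coil, and most of them are ubiquitin ligases: the RING recruits an E2 enzyme that carries ubiquitin, and the part at the C-terminus picks the substrate. That part defines classes within the family, among them NHL repeats, a microtubule-binding COS box, a PHD finger with a bromodomain, and the B30.2 (PRY-SPRY) domain. In brain the family is known for ligases that act on the axonal cytoskeleton and on synapses, for repressors in chromatin, and for interferon-induced sensors and restriction factors.

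Total RNA came from the hippocampus of C57BL/6 mice aged 12 months, 3 wild-type animals (libraries WT 1 to WT 3) and 3 animals with 1 disrupted allele of TonEBP (TonEBP+/-, libraries HET 1 to HET 3). The animals were littermates from a cross of TonEBP+/- mice on the C57BL/6J background, TonEBP is encoded by Nfat5, and the labels name no other genetic difference between the groups. Whole hippocampus was used, and no cell type was isolated. The labels give each mouse a number and nothing on housing or batches, and the p-values below measure the spread between these samples.

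Values are given in FPKM, fragments per kilobase of transcript adjusted for sequencing depth, read from the deposited log2 scale as 2 to the power of the value minus 1. A gene was tested when it reached 1 FPKM in at least 3 libraries, and 13122 genes did. Differences are of log2(FPKM + 1), libraries labelled TonEBP+/- minus wild type, from limma, with p-values adjusted by the Benjamini-Hochberg method across the genes tested. The steps between low values corresponded to about 8700000 to 13800000 fragments in each, and 1 fragment over 1 kb of usable transcript was worth 0.0725 to 0.115 FPKM. Hippocampal neuron markers were all tested (10 of 10), with summed levels of 252 to 293 FPKM. Nfat5 was at 10.5, 8.39 and 9.72 FPKM in the wild-type libraries, against 8.25, 9.31 and 8.42 FPKM in libraries labelled TonEBP+/-. The groups overlapped (limma adjusted p = 1.00), so that this level did not check the labels. Thalamus and habenula markers lay lower in 13 of 14 tested genes, with medians over the markers of 0.31, -0.43 and -0.52 in HET 1 to HET 3 around the mean of all libraries, against 0.16 to 0.25 in wild type. In bulk RNA, fewer cells of a type in the tissue taken and less RNA per cell cannot be told apart. The markers do not show how much tissue from outside the hippocampus a library held.

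The promoters were examined first, because a group of members shares a sequence there. RefSeq windows (GRCm38.p6, 250 bases before to 50 after a start) were matched by symbol for 50 of the 65 members, with 64 windows in all. The other 15 were not searched, among them Trim36, Trim65, Trim35, Trim3, Trim33 and Trim8. GAAANNGAAA, the core of the element through which interferon acts, was searched on both strands. It was found in 9 of the 64 windows (14.1%), against 3.44% of all 32851 windows of this length. The 8 genes that held it were Trim12a, Trim12c, Trim21, Trim26, Trim30a, Trim30d, Trim34a and Trim2. Of the 13 innate immune members with a window 7 held it, and of the 37 other members 1 did. Trim12a, Trim12c, Trim30a, Trim30d and Trim34a lie in the same cluster on chromosome 7, and Trim30a enters with more than 1 window. The windows and genes counted are thus not independent of each other. The stretches below run 5′ to 3′ on the gene's strand, with the match or overlapping matches in capitals. Except in Trim21, the match lies on the opposite strand and reads TTTCNNTTTC. Around the match Trim30a and Trim30d are alike, and so are Trim12a and Trim12c, while Trim34a differs from both pairs.
Trim30a (chr7:104465194-104465259, minus strand): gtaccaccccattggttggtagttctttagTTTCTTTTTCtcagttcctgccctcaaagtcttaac
Trim30d (chr7:104507851-104507920, minus strand): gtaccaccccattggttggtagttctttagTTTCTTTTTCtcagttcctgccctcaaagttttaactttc
Trim12c (chr7:104353350-104353408, minus strand): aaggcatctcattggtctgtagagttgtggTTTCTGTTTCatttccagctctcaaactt
Trim12a (chr7:104315466-104315495, minus strand): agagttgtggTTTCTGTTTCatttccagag
Trim34a (chr7:104244457-104244486, plus strand): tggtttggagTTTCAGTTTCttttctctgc
Trim21 (chr7:102565447-102565476, minus strand): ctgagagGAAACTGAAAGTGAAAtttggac
Trim26 (chr17:36836956-36837031, plus strand): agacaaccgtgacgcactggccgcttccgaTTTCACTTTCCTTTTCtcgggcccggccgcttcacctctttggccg

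In Trim30a, Trim30d and Trim12c the match ended 27, 32 and 20 bases before the RefSeq start. Trim30a has another RefSeq start, where a match lay at bases 2 to 11 after it. In Trim12a and Trim34a it lay at bases 10 to 19 after the first transcribed base, counted from 0, and in Trim21 its 2 overlapping matches lay at 13 to 28. The match in Trim26 lay farther up, and that in Trim2 was in 1 of its 5 windows. The binding motif of TonEBP itself, TonE, was found by its consensus in 1 of the 64 windows (1.56%), that of Trim38, against 4.96% of all windows. Its core TGGAAA, which is part of TonE, was found in 12 of the 64 (18.8%), against 21.4% of all windows. A match is a description of letters, not a binding site.

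Of the 65 members 33 were tested, 29 of them at 1 FPKM or more in all 6 libraries. No tested member owed its place to 1 genotype alone (0 of 33 reached 1 FPKM in libraries of a single genotype). On average over the libraries 14 members were at 10 FPKM or more and 19 of the tested ones below that. The 5 highest, Trim2, Trim44, Trim32, Trim35 and Trim9, made up 57.0% of the summed level of the family, and the 10 highest 78.3%. The sum over all 65 was between 465 and 499 FPKM in every library.

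**Figure D1:**
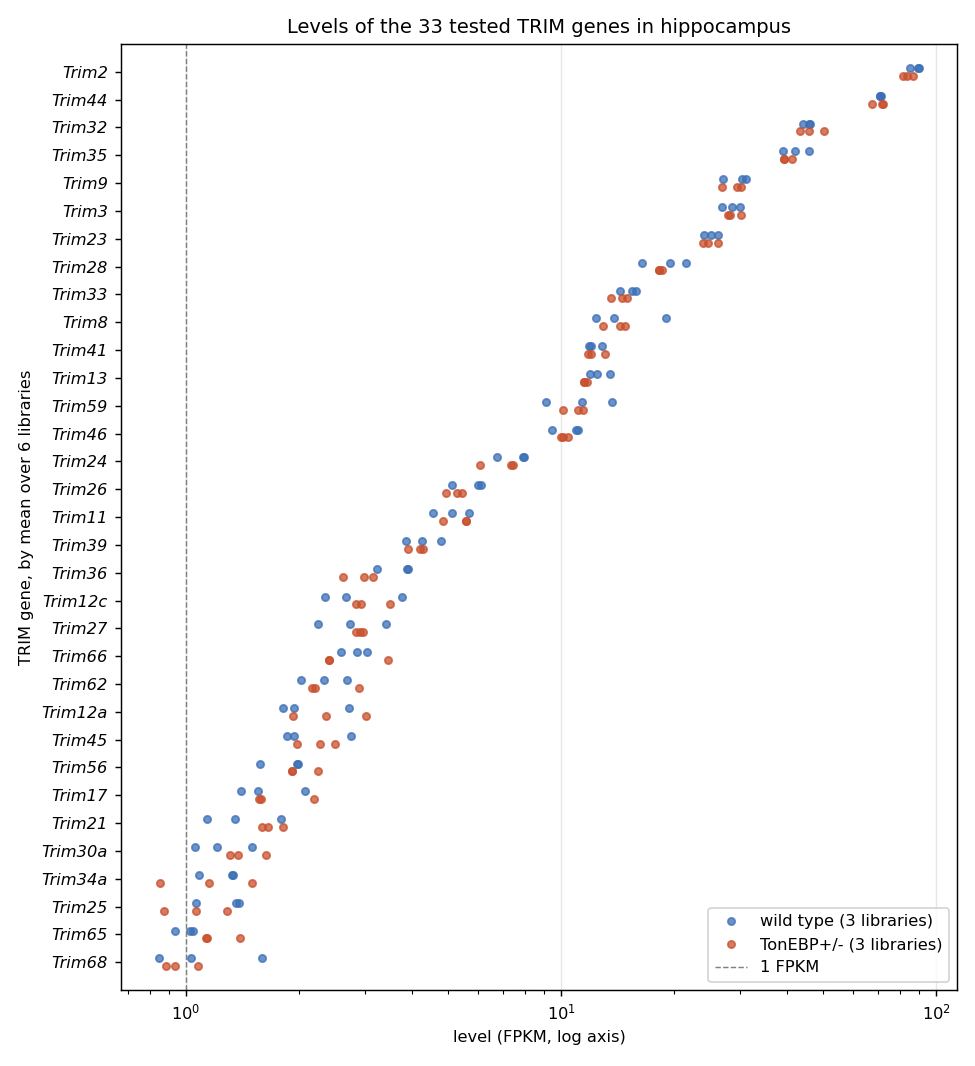
Level of each of the 33 tested TRIM genes (FPKM, log axis), ordered by the mean over 6 libraries. Each point is a library, wild type in blue and TonEBP+/- in red, and the dashed line is 1 FPKM. Levels run from near 1 FPKM to 90.2 FPKM in Trim2, and the points of both genotypes lie together in most genes.

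The highest member was an NHL-repeat ligase, the class best known from neurons. Trim2, which ubiquitinates neurofilament light chain, was at 89.3, 85.0 and 90.2 FPKM (WT 1 to WT 3) against 83.8, 81.7 and 86.6 FPKM (HET 1 to HET 3). HET 3 lay within the wild-type range and the other two below it. Trim32, a ligase also known from muscle and neural progenitors, was at 45.7, 44.2 and 46.0 FPKM in the wild-type libraries, against 43.3, 50.1 and 45.7 FPKM in libraries labelled TonEBP+/-. Trim3, which acts on postsynaptic scaffold proteins, was at 29.99, 26.8 and 28.5 FPKM against 27.8, 30.1 and 28.2 FPKM. The genotypes overlapped in all 3. The remaining NHL member, Trim71, a factor of embryonic stem cells, stayed under 0.5 FPKM in every library (0.332 to 0.478 FPKM).

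Among COS-box members, Trim9, a brain-enriched ligase of the netrin pathway, was at 31.0, 27.0 and 30.4 FPKM in the wild-type libraries, against 29.4, 30.18 and 26.9 FPKM in libraries labelled TonEBP+/-. Trim46, which organises microtubules at the start of the axon, was at 10.99, 9.46 and 11.1 FPKM against 10.1, 10.5 and 10.01 FPKM. Its annotated exons overlap those of Krtcap2 on the other strand by up to 239 bases, and the use of strand in quantification was not given in the sources used here. Trim67, the close relative of Trim9, was at 0.902, 0.895 and 1.02 FPKM in the wild-type libraries, against 0.910, 0.659 and 0.628 FPKM in libraries labelled TonEBP+/-, and was not tested. The means of Trim9 and Trim67 were 29.2 and 0.835 FPKM. The muscle members of this class, Trim54, Trim55 and Trim63, and Trim42 stayed near 0, with a highest single value of 0.121 FPKM, in Trim63.

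The chromatin members were all tested. Trim28, the co-repressor of KRAB zinc finger proteins, was at 21.5, 16.4 and 19.6 FPKM in the wild-type libraries, against 18.6, 18.2 and 18.3 FPKM in libraries labelled TonEBP+/-. The wild-type values enclosed the others. Trim33, which acts on SMAD4, was at 15.9, 14.4 and 15.4 FPKM against 13.6, 14.5 and 15.0 FPKM, with HET 1 alone below the wild-type range. Trim24, a cofactor of nuclear receptors, was at 7.25 FPKM and Trim66, a related chromatin protein, at 2.79 FPKM on average.

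Other high members belong to several classes. Trim44, which lacks a RING and carries a ubiquitin-binding zinc finger, was at 71.3, 70.9 and 70.8 FPKM in the wild-type libraries, against 71.9, 71.6 and 67.5 FPKM in libraries labelled TonEBP+/-. It varied least of the tested members, with a coefficient of variation of 2.28% over the 6 libraries, against a median of 11.004%. Trim35, a B30.2 protein, was at 42.1, 39.0 and 45.9 FPKM against 39.2, 39.2 and 41.2 FPKM. Trim23, which carries an ARF GTPase domain, was at 25.0, 26.1 and 24.1 FPKM against 24.7, 23.9 and 26.3 FPKM. In both the groups overlapped. Among the rest of the tested B30.2 members, Trim41 was at 12.3 FPKM in wild type, Trim11 at 5.11, Trim39 at 4.30, Trim27 at 2.80 and Trim62 at 2.35 FPKM, and Trim45, with a filamin repeat, was at 2.18 FPKM.

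Trim8, a regulator of cytokine signalling, was at 19.004, 12.4 and 13.8 FPKM in the wild-type libraries, against 14.8, 14.4 and 13.0 FPKM in libraries labelled TonEBP+/-. WT 1 alone stood above the rest, and it was also the highest library for Trim28, Trim59, Trim45 and Trim68. In all, WT 1 was the highest library for 10 of the 33 tested members, where it was so for 17.1% of all genes tested. Of the 32 neighbouring pairs in the order of levels, 25 had ranges over the 6 libraries that overlapped. The 7 pairs that stood apart were all among the 15 highest members, from Trim2 over Trim44 to Trim46 over Trim24.

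The 32 members that were not tested included 27 members under 0.5 FPKM in every library and 2, Trim50 and Trim61, listed at or near 0 in all. Just inside the filter were Trim25, Trim65 and Trim68, at means of 1.17, 1.11 and 1.06 FPKM, and just outside were Trim30d, Trim67 and Trim47, at 0.871, 0.835 and 0.805 FPKM. Trim7, Trim16, Trim71 and Trim14 lay between 0.688 and 0.346 FPKM on average, and Trim43a, Trim40, Trim43b and Trim43c between 0.286 and 0.105 FPKM. The other 21, at 0.1 FPKM or less, were Trim72, Trim29, Trim75, Trim15, Trim58, Trim63, Trim6, Trim52, Trim38, Trim80, Trim42, Trim30b, Trim31, Trim10, Trim34b, Trim54, Trim69, Trim55, Trim60, Trim50 and Trim61. Such values can rest on single fragments.

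The members lie on 15 chromosomes (RefSeq gene table, GRCm38), with 14 on chromosome 7 and 10 on chromosome 11. Where neighbours no more than 100000 bases apart were joined, 22 members fell into 6 clusters. That of the Trim5-like restriction factors on chromosome 7 (104218795 to 104507853) held 8 members, of which 4 were tested. That in the major histocompatibility region of chromosome 17 (36837123 to 36910217) held Trim26, Trim15, Trim10, Trim40 and Trim31, of which Trim26 alone was tested, at 5.48 FPKM on average against at most 0.250 FPKM in any library for the other 4. The cluster of Trim75, Trim60 and Trim61 on chromosome 8 held no tested member (0 of 3).

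The question of the genotype comparison was whether the rest of the family differs with TonEBP dose. Of the 33 tested members 0 passed an adjusted p of 0.05 in limma, as did 0% of all genes tested. An unadjusted p under 0.05 was reached by 1 member, Trim36, against 3.69% of all genes tested, or 1.84% counted on the lower side alone. The differences ran from -0.25 (Trim36) to 0.16 (Trim21). The median was -0.03, against -0.00 over all genes tested, and the median size without sign was 0.06 against 0.07. Of the 33, 19 lay lower in libraries labelled TonEBP+/- (57.6%, against 50% of all genes tested). That count was 15 without WT 1 and 16 without HET 3, and the median was then 0.0078 and 0.0023.

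The intervals show what the comparison could bound. The 95% intervals reached 0.14 (Trim44) to 0.35 (Trim12a) to either side. In 32 of the 33 members they lay within -0.5 to 0.5, Trim36 being the exception. These bounds are of log2(FPKM + 1), a scale that narrows the differences and intervals of low members. With 0.1 added to the FPKM in place of 1, the difference of Trim65 was 0.26 (SE 0.213) against 0.15 (SE 0.123). Fold changes of low members were thus bounded less tightly. For the 10 highest members the ratio of the mean levels was between 0.933 (Trim8) and 1.02 (Trim32).

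**Figure D2:**
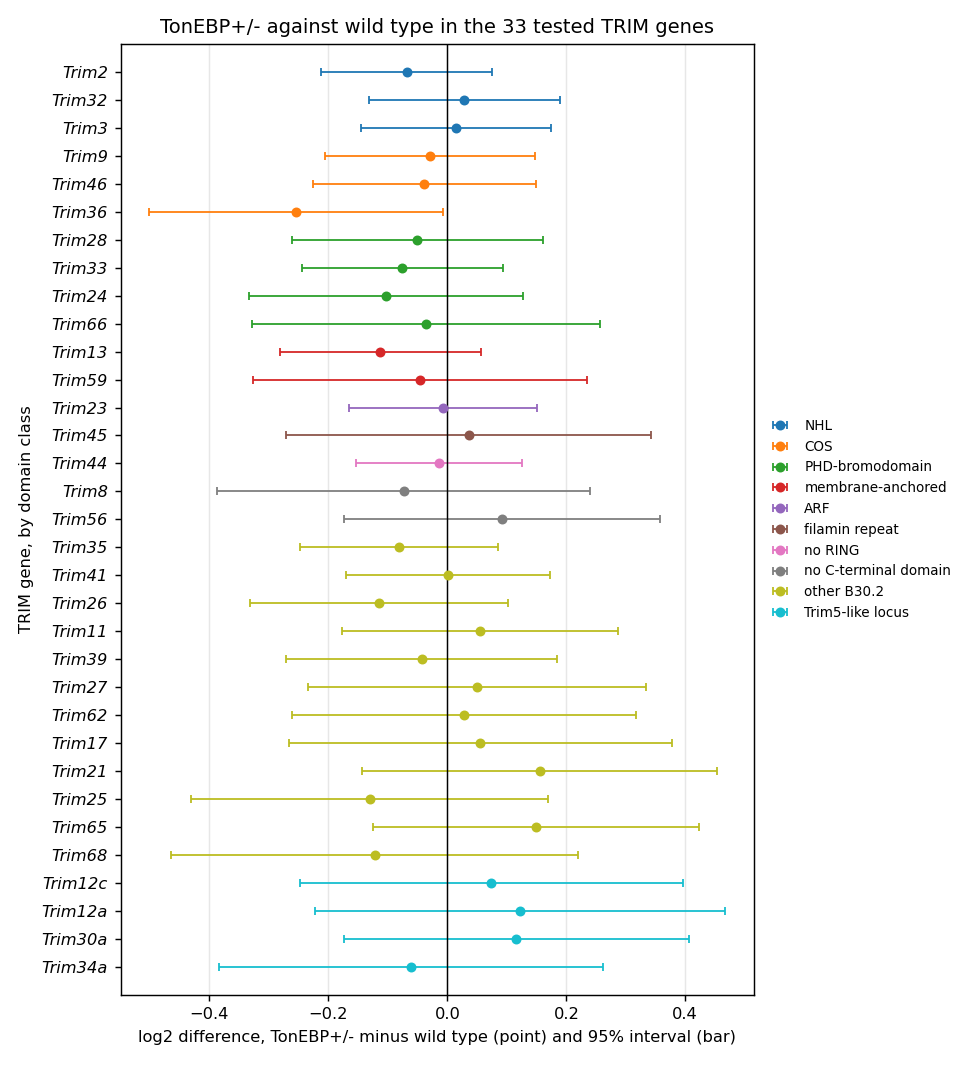
Difference of log2(FPKM + 1), TonEBP+/- minus wild type (x axis), for the 33 tested TRIM genes grouped by domain class. Points are limma estimates from 3 libraries against 3 and bars are 95% intervals. The interval of Trim36 ends at -0.01 and those of the other 32 genes hold 0.

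By class, the 4 chromatin members (Trim28, Trim33, Trim24 and Trim66) all had differences under 0 (median -0.06), also with quantile normalization or median scaling. Without WT 1, 2 of the 4 did, and 3 of the 4 without HET 1 or without HET 3. None passed the test. The COS-box members had 3 of 3 under 0 (median -0.04), and 2 of 3 without WT 1 or without HET 3. The NHL members had 1 of 3 under 0 (median 0.014), but 3 of 3 without HET 2 (median -0.027) or with the thalamus covariate (median -0.040), and 2 of 3 without WT 2. The other B30.2 members had 5 of 12 under 0, 6 of 12 with either scaling, and 5 to 7 of 12 with single libraries left out. The innate immune members had 3 of 8 under 0 (median 0.08), and with single libraries left out the median ran from -0.01 (without WT 3) to 0.16 (without WT 2).

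The genotypes did not overlap in 3 tested members, 9.09% of the 33 against 8.52% of all genes tested. Trim36 and Trim13 lay lower, where 4.39% of all genes tested did, and Trim65 higher, where 4.13% did. Trim36, a COS-box protein first described in testis and needed in early embryos, was at 3.88, 3.24 and 3.92 FPKM in the wild-type libraries, against 2.99, 2.62 and 3.15 FPKM in libraries labelled TonEBP+/-. All 3 of the latter lay below the lowest wild-type library, WT 2, by a small margin for HET 3. The means were 3.68 ± 0.380 and 2.92 ± 0.274 FPKM (SD, n = 3 each), a ratio of 0.794. The difference was -0.25 (SE 0.110, 95% interval -0.50 to -0.01, limma unadjusted p = 0.0448, adjusted p = 1.00). In a two-sided exact permutation test p was 0.1, the smallest possible with 3 against 3. Groups that do not overlap always give this p, so that in Trim36, Trim13 and Trim65 it only restates how they were picked. With the thalamus markers as a covariate the difference was -0.25 (SE 0.146, limma unadjusted p = 0.119), and their part in the values of Trim36 was not tested further. With single libraries left out it ran from -0.32 to -0.20.

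Trim13, a ligase anchored in the membrane of the endoplasmic reticulum, was at 11.9, 12.5 and 13.5 FPKM in the wild-type libraries, against 11.5, 11.5 and 11.7 FPKM in libraries labelled TonEBP+/-. The gap between WT 1 and HET 3 was small beside the spread of the wild-type libraries. The difference was -0.11 (SE 0.0756, 95% interval -0.28 to 0.06, limma adjusted p = 1.00), with p = 0.1 in the exact permutation test (two-sided). Without WT 3, the highest library, it was -0.07. The other membrane-anchored member, Trim59, was at 13.6, 9.14 and 11.4 FPKM against 11.4, 10.1 and 11.1 FPKM, and its wild-type values enclosed those of the other genotype.

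Trim65, a ligase that acts on the RNA sensor MDA5, was at 1.02, 1.05 and 0.937 FPKM in the wild-type libraries, against 1.14, 1.39 and 1.13 FPKM in libraries labelled TonEBP+/-. The difference was 0.15 (SE 0.123, 95% interval -0.12 to 0.42, limma adjusted p = 1.00), with p = 0.1 in the exact permutation test (two-sided), and 0.09 without HET 2. Its neighbour Trim47, a B30.2 protein, was at 0.459, 0.464 and 0.647 FPKM in the wild-type libraries, against 0.786, 1.49 and 0.988 FPKM in libraries labelled TonEBP+/-. In Trim47 too the groups stood apart, with HET 2 highest, and the ratio of the means was 2.08. It was outside the filter. In the fit without the filter its difference was 0.44 (SE 0.147, limma unadjusted p = 0.0360, adjusted p = 1.00).

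Among untested members at 0.3 FPKM or more on average, Trim47 was the only 1 of 7 whose groups stood apart, against 9.15% of all untested genes at such levels. Trim47 and Trim65 lie side by side on chromosome 11 (116105750 to 116110235 and 116124708 to 116131413). In the GENCODE annotation their exons overlap by up to 176 bases on the same strand, and 4.49% of the 50-base windows of the longest Trim65 transcript also occur in Trim47 transcripts. Reads from there cannot be told apart. Endothelial markers, of which 6 of 6 were tested, had medians of -0.00, -0.11 and 0.12 (WT 1 to WT 3) against -0.04, 0.22 and -0.13 (HET 1 to HET 3) around the mean of all libraries, and meningeal markers, of which 8 of 10 were tested and 8 lay higher, had -0.16, -0.06 and -0.10 against -0.26, 0.52 and 0.08. Their part in the values of Trim47 was not tested.

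**Figure D3:**
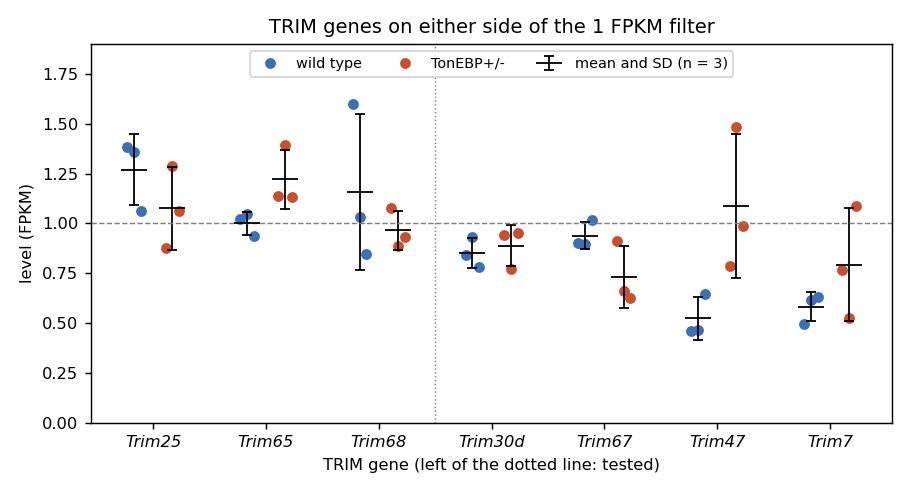
Level (FPKM) of TRIM genes just inside (Trim25, Trim65, Trim68) and outside (Trim30d, Trim67, Trim47, Trim7) the filter of 1 FPKM in at least 3 libraries. Points are libraries, horizontal marks and bars are the mean and SD (n = 3), and the dashed line is 1 FPKM. In Trim65 and Trim47 the 3 TonEBP+/- libraries lie above the 3 wild-type libraries, and in the other genes the groups overlap.

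The rest of the 5 members with the smallest p in each direction had overlapping groups and a limma adjusted p of 1.00. On the lower side, Trim26, a B30.2 protein of innate immunity, was at 6.01, 5.11 and 6.13 FPKM in the wild-type libraries, against 5.46, 4.94 and 5.27 FPKM in libraries labelled TonEBP+/- (difference -0.12, SE 0.0968). Trim35 had a difference of -0.08 (SE 0.0748) and Trim2 one of -0.07 (SE 0.0642). On the higher side, Trim21, the cytosolic receptor for antibodies, was at 1.35, 1.79 and 1.14 FPKM against 1.60, 1.81 and 1.66 FPKM (difference 0.16, SE 0.133). Trim56, a ligase of antiviral signalling, was at 1.99, 1.97 and 1.58 FPKM against 2.25, 1.92 and 1.92 FPKM (difference 0.09, SE 0.119). Trim25, which ubiquitinates the RNA sensor RIG-I, was at 1.38, 1.36 and 1.06 FPKM against 0.876, 1.29 and 1.06 FPKM.

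In the Trim5-like locus the libraries differed more than the genotypes. Trim12c was at 2.66, 3.76 and 2.34 FPKM (WT 1 to WT 3) against 2.93, 2.85 and 3.496 FPKM (HET 1 to HET 3). Trim12a was at 1.82, 2.71 and 1.95 FPKM against 2.36, 1.93 and 3.03 FPKM (difference 0.12, SE 0.154, limma adjusted p = 1.00), and the difference was 0.0023 without HET 3. Trim30a, known as a brake on NF-kB signalling, was at 1.21, 1.496 and 1.06 FPKM against 1.38, 1.31 and 1.63 FPKM (difference 0.12, SE 0.129, limma adjusted p = 1.00). In all 3, WT 2 and HET 3 were the highest 2 libraries. This held for 4 of the 33 tested members, Trim23 being the other, and for 11.3% of all genes tested. The shares are close, so that the order does not set the family apart. Trim34a was at 1.33, 1.34 and 1.08 FPKM against 1.504, 0.855 and 1.15 FPKM and did not share that order.

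Several of these genes are near copies, and the assignment of reads that fit more than 1 of them was not given in the sources used here. Of the 50-base windows of the longest transcript, 28.7% in Trim12c, 41.3% in Trim34a and 6.53% in Trim30a also occur in another TRIM gene of the annotation, and 0.380% in Trim12a. The values of Trim12c and Trim34a are therefore uncertain. So are those of Trim17, a B30.2 gene tested at 1.73 FPKM on average, whose exons overlap those of the histone gene Hist3h2a (130 FPKM on average) by up to 708 bases on the same strand.

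Markers of choroid plexus also differed between libraries, and were highest in the libraries where Trim12a, Trim12c and Trim30a were highest. Their medians around the mean of all libraries were 0.04, 1.04 and -1.09 (WT 1 to WT 3) against 0.51, -1.86 and 1.26 (HET 1 to HET 3), so that HET 3 and WT 2 were highest here too. All 7 were tested, none was at 0, and their summed level ran from 282 to 2884 FPKM in wild type and from 96.8 to 3445 FPKM in libraries labelled TonEBP+/-. The lowest library for these markers was HET 2, whereas Trim12c and Trim30a were lowest in WT 3 and Trim12a in WT 1. Interferon-induced genes had medians of -0.02, 0.18 and -0.14 (WT 1 to WT 3) against 0.01, -0.05 and 0.10 (HET 1 to HET 3), again with WT 2 and HET 3 highest. Microglia markers had -0.09 in WT 2 and -0.00 in HET 3, and their highest median, 0.16, in HET 1. Apart from choroid plexus, no list of cell type markers had its highest medians in WT 2 and HET 3. As the lists were chosen with earlier results of these data known, the shared order is a description only. The part of the choroid plexus in the values of the locus was not tested.

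**Figure D4:**
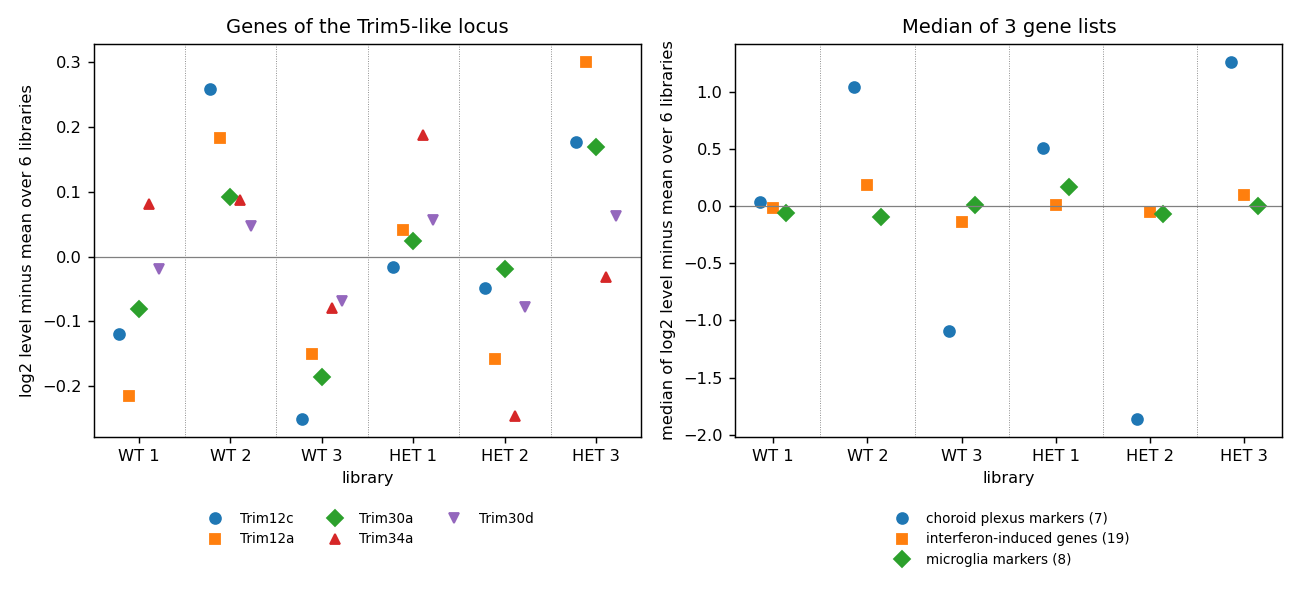
Left, log2(FPKM + 1) of 5 genes of the Trim5-like locus in each library, minus the gene's mean over the 6 libraries. Right, the median of the same quantity over choroid plexus markers (7 genes), interferon-induced genes (19) and microglia markers (8). Trim12a, Trim12c and Trim30a are highest in WT 2 and HET 3, as are the choroid plexus and interferon-induced medians. Of all genes tested, 11.3% have these as their highest libraries.

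Genes that work with the family were read from the same fit, and 0 of them passed. Of 25 genes for ubiquitin, its activating enzymes and its E2 carriers, all of them tested, 16 lay lower and 9 higher (median -0.05), and 13 lay lower without HET 2. Ube2d2a and Ube2e3, of E2 families that serve many RING ligases, were at 54.0 ± 6.75 against 46.4 ± 2.56 FPKM (difference -0.21, SE 0.0916) and at 53.5 ± 2.77 against 48.3 ± 1.23 FPKM (SD, n = 3 each; difference -0.14, SE 0.0664). The groups stood apart in 5 of the 25, all lower, against 4.39% of all genes tested, namely in these 2 and in Ube2d3, Ube2n and Ube2g1, which were picked out after their values were seen. Ube2k, an E2 for chains linked through lysine 48, had a difference of -0.12 (SE 0.0734). Rps27a, which encodes ubiquitin fused to a ribosomal protein, was at 603 ± 90.6 against 585 ± 60.6 FPKM (SD, n = 3 each), and its groups overlapped.

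Of 31 interferon-induced genes 19 were tested, 11 of them higher (median 0.02), or 10 of 19 with either scaling and 9 of 19 without WT 3 or without HET 3. Without WT 2, 14 of 19 lay higher (median 0.11). The smallest p values were those of Ifitm3, an antiviral membrane protein (difference 0.25, SE 0.110), Stat2, a signal transducer of interferon (0.22, SE 0.114), and Xaf1 (-0.17, SE 0.124), each with a limma adjusted p of 1.00. Ifi27 was the highest of this list, at 45.2 ± 12.0 against 46.0 ± 14.1 FPKM (SD, n = 3 each). Of 9 genes of the same RING, B-box and coiled-coil build or related to it without a Trim symbol 5 were tested, 3 of them higher, or 2 of 5 with either scaling. Mid2, a microtubule-binding relative of Trim36, was at 7.80 ± 0.803 against 6.80 ± 0.600 FPKM (SD, n = 3 each; difference -0.17, SE 0.1004, limma adjusted p = 1.00). Fsd1 and Fsd1l, at 11.1 and 10.2 FPKM in wild type, were the highest, with differences of 0.10 (SE 0.0888) and -0.03 (SE 0.0906).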

How the data were processed

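Libraries were made with the NEBNext Ultra II Directional kit and aligned with TopHat to mm10, per the labels' protocols and the submitters' processing notes. The version, annotation and abundance program were not given in the sources used here. The deposited values, 1 table per library, are on a log2 scale. No header names the unit. Low values of genes with 1 transcript fell within 0.15 of a whole step for 87.2% to 89.8% of genes per library when multiplied by transcript length less 200 bases, as FPKM do, so they were read as log2(FPKM + 1). If the unit is another, the levels in FPKM change and the log2 differences do not.

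The fit took genes that reached 1 FPKM in 3 or more libraries and used limma (version 3.58.1, R version 4.3.3) with 1 term for genotype and both the trend and the robust option of eBayes. The threshold was an adjusted p of 0.05. The fit was tested on simulated data. Differences of low genes are understated on this scale. Members and lists were chosen with earlier results of these data known. Values per library are given for the 10 highest tested members, the 5 with the smallest p per direction, and those whose groups do not overlap. They are also given for members at the filter and close copies that are compared, for Trim68 and Trim30d only as points in figures. The fit was repeated with each library left out, a thalamus covariate, a replicate block, median scaling, quantile normalization, a pseudocount of 0.1, an adjusted p of 0.1, the robust option off, no filter, and a stricter filter (mean of 5 FPKM or more). From the other lists, the 3 genes with the smallest p and the 2 highest are named, of which 1 is not reported here. Positions and promoters are from RefSeq (GRCm38.p6), and exons and transcripts from GENCODE on the same assembly. Figures were drawn with matplotlib 3.10.9.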

Additional observations from a re-analysis of the deposited data

How the results depend on the processing

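Under every alternative run, 0 TRIM members passed the threshold, also at an adjusted p of 0.1. The count of all genes past it was 0 in the fit as reported (484 at an unadjusted p under 0.05), 1 without the filter (Ush1c), and 0 to 8 with single libraries left out: 8 without HET 1, and 1 each without WT 1 (Snord57), WT 2 (Rims1) and HET 3 (Rn45s). None of these is a TRIM gene, and they are named after their values were seen. The median difference of the tested members, -0.03, was 0.014 without the filter, where all 65 members enter, and ran from -0.039 to 0.0078 with single libraries left out, above 0 without WT 1 (0.0078) and without HET 3 (0.0023). The cause was not tested. The number of members lower, 19 of 33, was 28 of 65 without the filter and 13 of 17 with the stricter one. The 10 single members whose differences are given, the 5 with the smallest p in each direction, kept their direction in all 134 alternative values. The smallest adjusted p among these was 0.888. This agreement was in part fixed in advance, as the members were chosen by their p in these same data. A change of filter, the robust option or the replicate block also leaves each difference as it was. Same-numbered libraries did not deviate together (correlations of -0.21, -0.25 and -0.16 over the genes tested). The deviations are from group means of 3 libraries, which ties these correlations to each other. They cannot show whether same-numbered libraries share a batch or handling, and the labels give only the number. With the replicate block 0 genes and 0 members passed. The median of -0.03 and the 19 of 33 members lower could not change there, as each number occurs in both genotypes. Depth limits the members under 1 FPKM, whose values can rest on a few fragments.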

Other observations

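Trim75, a member outside the filter, was at 0.0361, 0 and 0.0401 FPKM (WT 1 to WT 3) against 0.146, 0.132 and 0.153 FPKM (HET 1 to HET 3). In the fit without the filter its adjusted p was 0.685, the smallest of the 65 members. At such levels a value can rest on a single fragment or a few. Trim16, a RING-less member linked to damaged lysosomes, was at 0.541, 0.806 and 0.498 FPKM in the wild-type libraries, against 0.333, 0.192 and 0.513 FPKM in libraries labelled TonEBP+/-, and the groups overlapped through HET 3. Trim7, which binds glycogenin, was at 0.498, 0.617 and 0.632 FPKM against 0.768, 0.526 and 1.09 FPKM. These genes were chosen after their values were seen.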
